A study of Mus musculus with 9 samples.

Results

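Unmethylated, CpG-dense stretches of the autosomes were followed in Abl.1 cells given 5-aza-dC. A stretch was a tile of 1 kb on chromosomes 1 to 19. It was taken when all 9 libraries held at least 20 reads over its CpG positions, at least 40 distinct CpG positions were listed for it, and the pooled level in the 2 DMSO libraries was under 5%. A read here is 1 call of 1 CpG, so a sequenced fragment that spans several CpGs is counted once at each. The rule found 6394 tiles, out of 10214 CpG-dense tiles, 39263 autosomal tiles with 20 reads in every library and 441418 tiles with a read in any library. The tiles were chosen by their measured DMSO level, so levels in DMSO, and the doses against DMSO, are given as a description without a test. The doses were tested against each other.

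Abl.1 is a clonal, immortalised B cell line from a female F1 mouse of the cross 129S1/SvImJ x CAST/EiJ, and every library comes from this 1 clone. Cells were grown in medium with 1% DMSO alone (2 libraries) or with 5-aza-dC with 0.2 µM (2 libraries), 2 µM (3 libraries) or 10 µM (2 libraries), the drug having been dissolved in DMSO. They were collected on Day 2, after dead cells had been removed, and methylation was read by reduced representation bisulfite sequencing (RRBS), in which a restriction enzyme enriches fragments rich in CpG. The labels name the replicates as library preparations and do not say whether the cultures were separate, so p-values measure only the spread between libraries, which may be technical. The libraries held 8590777 to 16495423 reads at CpG positions, with the fewest in 10 µM replicate 2, and 2980084 to 7264771 of these lay in the tiles. Intervals, floors and spreads cover counting error and library spread only.

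Most CpGs of mammalian DNA are methylated, while CpG islands at promoters usually are not. Proteins with a CXXC domain bind unmethylated CpGs there, and transcription and histone marks help to keep DNA methyltransferases away. 5-aza-dC (decitabine) is built into DNA during replication and traps DNMT1, the enzyme that copies methylation onto the new strand, so methylation is lost as cells divide. Tiles that start without methylation have little to lose, and show where methylation remains at a low level.

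The promoters below show what such a tile looks like in sequence. Each is the RefSeq promoter (assembly GRCm38.p6, the build on which 255824 of 255824 listed CpG positions in such windows fell on a CG), from 250 bases before to 50 after the start, 5′ to 3′ on the gene's strand. Capitals mark each CG with at least 10 reads in every library. Polr2a, the largest subunit of RNA polymerase II, is shown as a tile with hardly any methylation. Gcsh, a protein of the glycine cleavage system, and 2010001A14Rik, a long non-coding RNA, are shown because their tiles were called between doses. Ddx20, an RNA helicase of the SMN complex, is shown because its tile was among the highest after treatment while its promoter was not.
Polr2a (chr11:69758584-69758883, minus strand): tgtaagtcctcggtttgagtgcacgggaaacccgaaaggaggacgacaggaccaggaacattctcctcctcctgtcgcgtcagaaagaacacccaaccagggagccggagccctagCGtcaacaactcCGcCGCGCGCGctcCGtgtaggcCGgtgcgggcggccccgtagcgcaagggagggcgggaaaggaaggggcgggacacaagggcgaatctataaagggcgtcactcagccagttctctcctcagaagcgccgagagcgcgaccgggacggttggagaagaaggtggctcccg
Gcsh (chr8:116993449-116993748, minus strand): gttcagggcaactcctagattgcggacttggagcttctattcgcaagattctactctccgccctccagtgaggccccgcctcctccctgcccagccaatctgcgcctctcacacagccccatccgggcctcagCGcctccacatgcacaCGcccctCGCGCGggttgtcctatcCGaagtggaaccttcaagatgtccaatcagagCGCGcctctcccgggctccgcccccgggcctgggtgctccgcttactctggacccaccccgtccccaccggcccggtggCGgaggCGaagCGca
2010001A14Rik (chr11:57801418-57801717, minus strand): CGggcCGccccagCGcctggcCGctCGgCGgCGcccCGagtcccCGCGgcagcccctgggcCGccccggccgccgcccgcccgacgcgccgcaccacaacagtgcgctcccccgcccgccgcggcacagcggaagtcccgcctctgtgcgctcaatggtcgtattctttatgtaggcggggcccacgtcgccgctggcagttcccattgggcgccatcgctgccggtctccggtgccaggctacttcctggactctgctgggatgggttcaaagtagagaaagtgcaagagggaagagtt
Ddx20 (chr3:105687522-105687821, minus strand): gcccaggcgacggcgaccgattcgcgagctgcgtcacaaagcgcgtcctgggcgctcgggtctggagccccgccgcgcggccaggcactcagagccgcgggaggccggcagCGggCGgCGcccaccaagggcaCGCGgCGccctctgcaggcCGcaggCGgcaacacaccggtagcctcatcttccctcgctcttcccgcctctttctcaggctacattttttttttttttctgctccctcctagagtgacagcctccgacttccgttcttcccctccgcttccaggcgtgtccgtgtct

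The Polr2a promoter holds 30 CGs, of which 8 were read deeply enough to be marked. Its marked CGs had no methylated read in 8 libraries and 0.621% in 2 µM replicate 1. With 87 to 217 reads per library, no methylated read allows a level of up to 3.45% at the lowest coverage. This limit, like those below, takes each CpG call as independent. Where calls share a fragment, the true limit is higher. The Gcsh promoter holds 24 CGs, and its 11 marked ones were at 5.37% and 8.50% in DMSO, 2.81% and 5.58% with 0.2 µM, 6.78%, 6.17% and 13.7% with 2 µM, and 7.37% and 2.05% with 10 µM. The promoter of 2010001A14Rik holds 36 CGs, of which 11, all upstream of the start, were marked. These were at 7.32% and 8.33% in DMSO, 11.3% and 14.1% with 0.2 µM, 20.1%, 7.57% and 5.34% with 2 µM, and 11.7% and 8.33% with 10 µM. Pooled by dose they were at 12.5%, 10.9% and 10.3%, without the rise from 0.2 to 10 µM that was called for the tile. In the Ddx20 promoter, 34 CGs were present, and the 8 marked ones stayed at 0 in 7 libraries and at 0.526% and 0.625% in the others, with up to 2.50% allowed by no methylated read at the lowest coverage of 120 reads. The Ddx20 tile as a whole was at 4.38% and 2.38% in DMSO and between 3.32% and 11.4% in the treated libraries, so most of its methylated reads lay outside the marked CGs.

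Promoters starting in one of the tiles held many CGs. Of the tiles, 3980 (62.2%) contained a start of the RefSeq promoter table, which has no entry for chromosome 18, where 192 tiles lie. Their 5219 promoters had a median of 28 CGs in 300 bases (quartiles 22 and 36), against 7 over all 31396 autosomal promoters. Motifs were searched on both strands as exact letters, and a match is a description of sequence only. TATAAA, the TATA box, was in 3.99% of the tiles' promoters against 13.6% of all promoters. GGGCGG, the Sp1 GC box, was in 79.0% against 36.0%, and CCGGAAG, an ETS site, in 22.1% against 9.0%. The tiles were chosen by coverage and CpG number, and all promoters were not, so these contrasts partly follow from the rule. Promoters starting in covered tiles with fewer than 40 CpG positions had a median of 17 CGs. Among them TATAAA was in 7.41%, GGGCGG in 58.9% and CCGGAAG in 18.3%. CCGG, the MspI site, lies within CCGGAAG and was in 95.7% of the tiles' promoters and 53.5% of all. The share with the ETS letters was 23.3% in tiles under 0.5% in DMSO, 22.0% from 0.5 to 2%, 13.3% from 2 to 5%, and 5.95% in CpG-dense tiles at 5% or more, where the median number of CGs was 27. The GC box share differed little over these same classes, from 78.7% to 79.4% in the tiles and 75.3% in the CpG-dense tiles at 5% or more.

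The tiles were spread over the autosomes. They made up between 56.9% of the CpG-dense tiles of chromosome 7 and 69.2% of those of chromosome 16. They formed 5397 runs of adjacent tiles, 4471 of a single tile, 864 of 2 tiles and 62 of 3 or more, the longest covering 5 kb. A tile held a median of 60 listed CpG positions (range 40 to 171). The 5 tiles with the most positions, at Med13l, A930018O16Rik, Chd7, Mir17 and Gm51897, held 161 to 171. A gene end, taken as either end of a gene within 1 kb because the gene table carries no strand, lay at 5658 of the tiles (88.5%), at 73.7% of the other CpG-dense tiles and at 53.9% of all autosomal tiles with 20 reads. Of the 736 tiles elsewhere, 678 lay inside a gene and 58 outside genes.

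The mean methylation level over the tiles was lowest with 0.2 µM. It was 0.771% and 0.757% in DMSO, 0.557% and 0.554% with 0.2 µM, 0.711%, 0.734% and 0.772% with 2 µM, and 0.794% and 0.788% with 10 µM. Both 0.2 µM libraries lay under all others, and the 3 doses did not overlap. The means were 0.764% ± 0.0102 (SD, n = 2), 0.556% ± 0.00226 (n = 2), 0.739% ± 0.0306 (n = 3) and 0.791% ± 0.00427 (n = 2). Over the 3 doses the level differed (exact two-sided permutation test over 210 assignments, p = 0.0190, smallest possible 0.00952). It was 0.183 percentage points higher at 2 than at 0.2 µM, 0.0522 higher at 10 than at 2 µM, and 0.236 higher at 10 than at 0.2 µM. No pair could reach 0.05, since an exact test of 3 libraries and 2 goes down to 0.1 at best, and one of 2 and 2 to 0.333. With tiles limited to under 2% in DMSO the test over the doses gave an exact permutation p = 0.0667, and the 3 differences kept their sign.

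**Figure D1:**
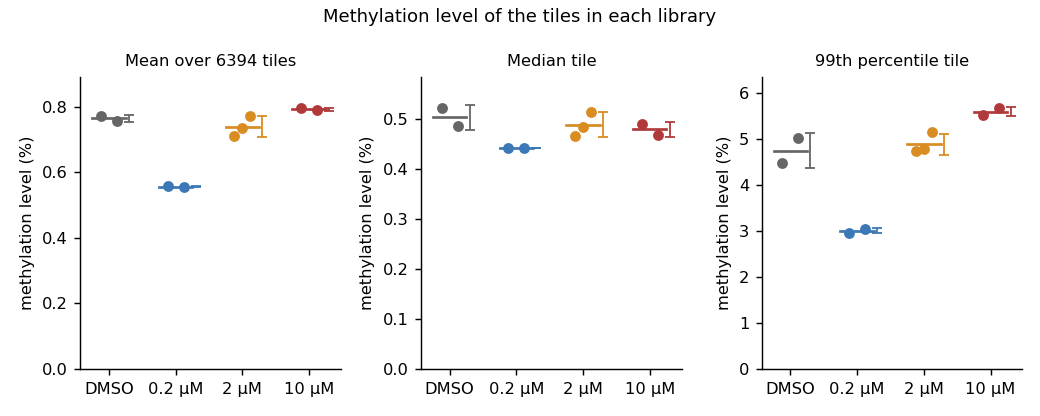
Methylation level of the 6394 tiles in each library (points), by treatment, as the mean over tiles, the median tile and the 99th percentile tile, in percent. Lines are group means and bars 1 SD. The 0.2 µM libraries are lowest in the mean (0.557% and 0.554%) and at the 99th percentile, while the medians lie close together.

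The typical tile moved little and the upper end of the distribution moved most. The median tile was at 0.504% ± 0.0252 (SD, n = 2) in DMSO, 0.442% at both 0.2 µM libraries, 0.489% ± 0.0246 (n = 3) with 2 µM and 0.480% ± 0.0153 (n = 2) with 10 µM, a difference over the doses that missed the threshold (exact permutation p = 0.143). The 90th percentile was 1.61% in DMSO, and 1.02%, 1.47% and 1.71% at the rising doses (exact permutation p = 0.00952, the smallest possible; 0.0310 adjusted over 13 summaries of the distribution). The 99th percentile was 4.75% in DMSO, and 3.01%, 4.89% and 5.60% (same p). Tiles at 2% or more were 7.73% of the tiles in DMSO, 2.31% with 0.2 µM, 6.79% with 2 µM and 8.41% with 10 µM. In every library of a group, 5 tiles were at 5% or more with 0.2 µM, 12 with 2 µM and 33 with 10 µM. These counts are not on a par, since 3 libraries had to pass with 2 µM and 2 at the other doses. Single libraries held 16 and 10 such tiles with 0.2 µM, 53, 52 and 72 with 2 µM, and 87 and 95 with 10 µM. All 7 treated libraries were under 5% in 6192 tiles (96.8%) and under 1% in 3585 (56.1%). No tile lacked a methylated read in all 9 libraries.

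**Figure D2:**
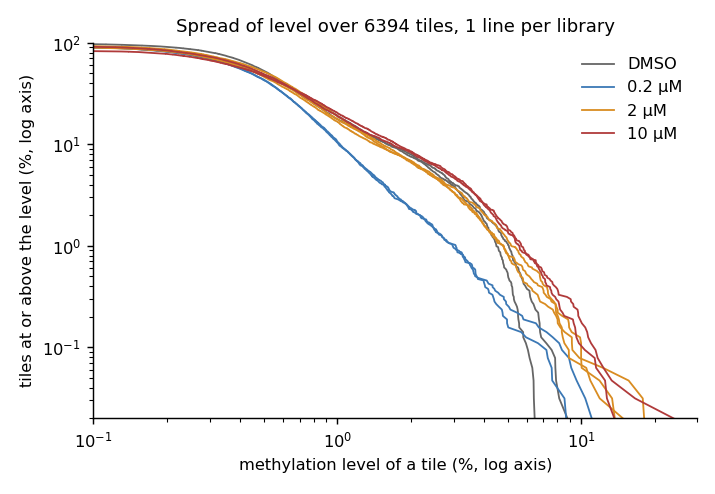
Share of the 6394 tiles at or above a methylation level, 1 line per library, coloured by treatment, with both axes logarithmic (percent). The 0.2 µM lines leave the others above about 1% and reach 2% in 2.35% and 2.27% of tiles, against 6.68% to 8.51% in the other treated libraries.

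Tiles differed from each other by more than counting error. The variance over tiles was 3.62 times the binomial variance with 0.2 µM and 6.40 to 6.73 times in the mean of the other groups, with no difference over the doses past the threshold (exact permutation p = 0.0857). Between libraries of 1 group the mean squared difference was 1.25 to 1.36 times the binomial value. Across the tiles, the levels of 2 libraries correlated at r = 0.556 to 0.714 in the 6 pairs within a group and at 0.453 to 0.748 in the 30 pairs between groups. These correlations describe tiles that share coverage and CpG content in all libraries.

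The difference between doses was larger in tiles with a higher DMSO level. These classes, like those by neighbour, distance and single CpG, were made after values of these data were seen, and 49 exact tests over the doses were run in all. Tiles with a low DMSO level had little to lose in percentage points, so a larger difference in the higher classes was partly built in. The 3114 tiles under 0.5% in DMSO were at 0.425% ± 0.000694 (SD, n = 2) with 0.2 µM, 0.450% ± 0.0218 (n = 3) with 2 µM and 0.441% ± 0.00737 (n = 2) with 10 µM, where the doses did not differ past the threshold (exact permutation p = 0.324). The 2222 tiles from 0.5 to 1% were at 0.472%, 0.544% and 0.553% (exact permutation p = 0.114). The 560 tiles from 1 to 2% were at 0.745%, 1.22% and 1.37% (exact permutation p = 0.0190, 0.0381 adjusted over the 4 classes). The 498 tiles from 2 to 5% were at 1.53% ± 0.00836 (n = 2), 2.88% ± 0.0654 (n = 3) and 3.39% ± 0.0452 (n = 2), a 2.21-fold rise from 0.2 to 10 µM (exact permutation p = 0.00952, 0.0381 adjusted).

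**Figure D3:**
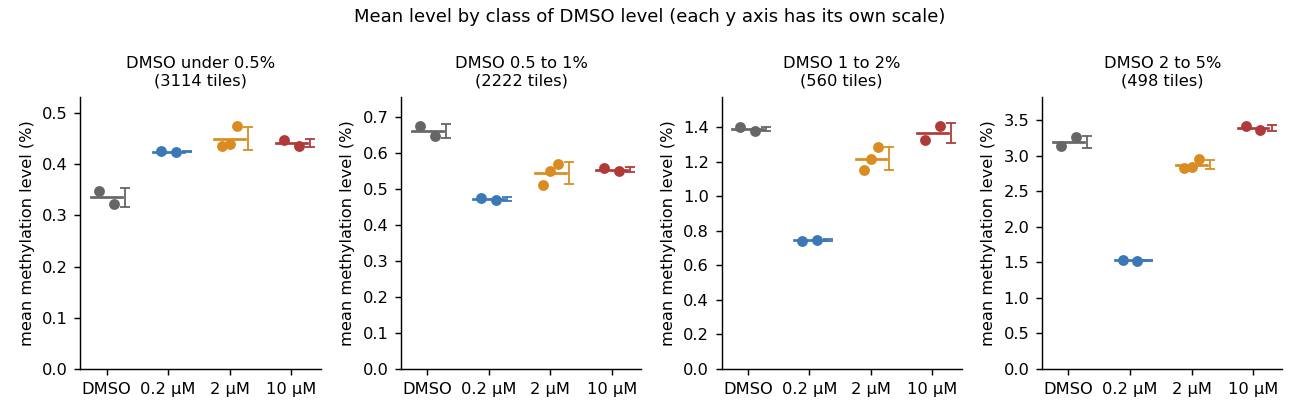
Mean methylation level (percent) of the tiles by class of their DMSO level, in each library (points), with group means (lines) and 1 SD (bars); each y axis has its own scale. Tiles under 0.5% in DMSO stay near 0.4% at every dose, and tiles of 2 to 5% sit at 1.53% with 0.2 µM and 3.39% with 10 µM.

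For a comparison with DMSO, 1 DMSO library set the classes and the other served as baseline. Here the tiles were all CpG-dense tiles under 5% in the library that set the classes, 6397 by replicate 1 and 6376 by replicate 2. Tiles from 2 to under 5% by DMSO replicate 1 were at 3.35% in replicate 2. They kept 47.9% of that with 0.2 µM, 89.1% with 2 µM and 105% with 10 µM. With the libraries exchanged these were 49.4%, 91.6% and 109%. Tiles under 0.5% kept 95.8% and 88.9% with 0.2 µM. Over all tiles so chosen, 70.1% to 71.4% remained with 0.2 µM, 93.6% to 95.1% with 2 µM and 101% to 102% with 10 µM. These are descriptions, with 1 library as baseline.

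The 639 tiles with the highest DMSO level, about 9% of reads in every library, held 24.1% to 24.2% of the methylated reads with 0.2 µM, 32.7% to 33.8% with 2 µM and 36.2% to 37.2% with 10 µM. Single CpGs showed the same order. Of the 97055 CpG positions with at least 10 reads in every library, 75848 had no methylated read in DMSO and were at 0.392%, 0.434% and 0.433% at the rising doses (exact permutation p = 0.152). They held 61.7%, 57.1% and 53.5% of the methylated reads at these positions. The 518 positions at 10% or more in DMSO, in 237 tiles, were at 17.3% in DMSO, 5.79% ± 0.236 (SD, n = 2) with 0.2 µM, 10.1% ± 0.397 (n = 3) with 2 µM and 13.1% ± 0.868 (n = 2) with 10 µM. They were 0.534% of the positions, and held 6.61%, 9.51% and 11.1% of the methylated reads. The 17.3% is the value they were chosen by. With positions chosen by DMSO replicate 1 alone, replicate 2 was at 11.97%, and the doses at 4.94%, 8.57% and 11.1%. With the libraries exchanged, the baseline was 7.62% and the doses were at 3.41%, 5.63% and 7.51%. Conversion of unmethylated cytosines is not given in the sources used here, and its part in the level near 0.4% was not tested.

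Gene ends had slightly lower levels than other places. The 5658 tiles at gene ends were at 0.554% ± 0.000714 (SD, n = 2) with 0.2 µM, 0.734% ± 0.0291 (n = 3) with 2 µM and 0.783% ± 0.000210 (n = 2) with 10 µM, and the 736 other tiles at 0.565% ± 0.0142, 0.774% ± 0.0432 and 0.855% ± 0.0355. The difference, gene ends minus other places, was -0.0201 and -0.00108 percentage points with 0.2 µM, -0.0206, -0.0490 and -0.0495 with 2 µM, and -0.0965 and -0.0466 with 10 µM, negative in all 7 treated libraries and in both DMSO libraries. In DMSO the difference was -0.0526 and -0.0212 percentage points. Its change over the doses missed the threshold (exact permutation p = 0.0762). With a window of 250 bp it passed (exact permutation p = 0.00952, the smallest possible), weighted by reads it gave 0.810, and with at least 60 CpG positions the changes between doses reversed sign. Of these places, the 58 tiles outside genes had the highest mean, at 0.670% ± 0.0432, 1.13% ± 0.103 and 1.30% ± 0.0361.

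Closer to a start the level was lower and the doses lay closer together. CpG positions within 200 bp of a RefSeq start were at 0.480% ± 0.00613 (SD, n = 2), 0.512% ± 0.0352 (n = 3) and 0.535% ± 0.0140 (n = 2) at the rising doses (exact permutation p = 0.210). Positions 1000 bp or more away were at 0.508% ± 0.00570, 0.657% ± 0.0221 and 0.716% ± 0.0191 (exact permutation p = 0.00952, 0.0286 adjusted over 3 classes). Far minus near was 0.0284 percentage points ± 0.000429 with 0.2 µM, 0.146 ± 0.0261 with 2 µM and 0.181 ± 0.00512 with 10 µM (exact permutation p = 0.0190, 0.0317 adjusted over 5 differences). In DMSO far minus near was 0.216 ± 0.0351 (n = 2), above all 3 dose means and given without a test. Positions within 200 bp were at 0.527% in DMSO and those 1000 bp or more away at 0.743%. Of these positions, 0.323% and 0.754% were at 10% or more in DMSO. The part of this lower starting level in the closer doses was not tested. Tiles with starts on both strands, 692 of them, were at 0.541%, 0.679% and 0.684%, and tiles with no start, 2222, at 0.567%, 0.803% and 0.874%, given without a test.

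**Figure D4:**
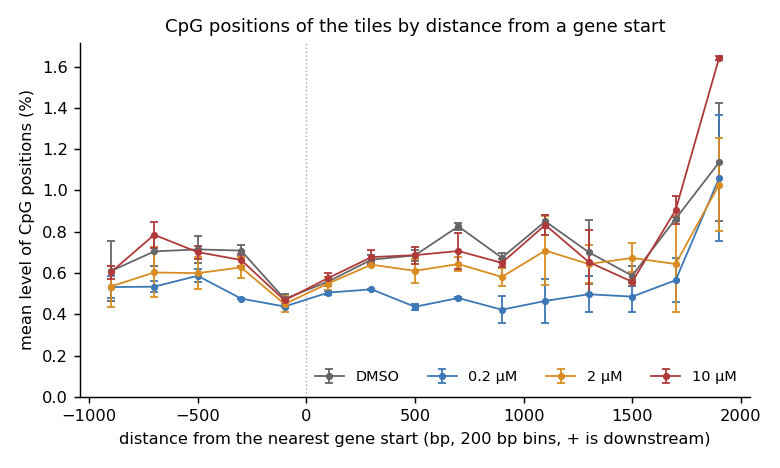
Mean methylation level (percent) of CpG positions with at least 10 reads in every library by distance from the nearest gene start, in bins of 200 bp, with group means over libraries and bars of 1 SD. In the 200 bp before the start the 4 groups lie between 0.437% and 0.474%, and farther downstream the 0.2 µM line lies under the others up to 1800 bp. The outermost bins hold few positions.

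A methylated neighbour went with a higher level. For each tile the higher DMSO level of the adjacent tiles was taken. The 3866 tiles beside tiles under 5% were at 0.528%, 0.670% and 0.707% at the rising doses, and the 383 beside a tile of 5 to 20% at 0.698%, 1.02% and 1.20%. The 270 tiles beside a tile of 20% or more exceeded those beside tiles under 5% by 0.267 percentage points ± 0.0411 (SD, n = 2) with 0.2 µM, 0.767 ± 0.0792 (n = 3) with 2 µM and 0.826 ± 0.117 (n = 2) with 10 µM (exact permutation p = 0.0476, 0.0595 adjusted over 5 differences, which misses the threshold). In DMSO this excess was 0.801 ± 0.00679 (n = 2), close to those with 2 and 10 µM and given without a test.

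A small share of single tiles passed a test between doses, and a tile that did not pass may still have changed. In a binomial model over 40414 tiles with Benjamini-Hochberg adjustment, 51 of the 6394 tiles (0.798%) were higher and 2 lower at 2 than at 0.2 µM, where 8.10% of all tiles tested were higher and 0.628% lower. At 10 against 2 µM, 23 were higher and 7 lower, against 8.79% and 0.0421% of all tiles. At 10 against 0.2 µM, 221 (3.46%) were higher and 15 (0.235%) lower, against 34.0% and 0.126%. Called tiles higher at 10 than at 0.2 µM were 17 of the 3114 under 0.5% in DMSO, 24 of 2222, 64 of 560 and 116 of the 498 from 2 to 5%. The median level of these 221 tiles was 0.660%, 1.67% and 2.61% at the rising doses. In DMSO it was 2.02%, given without a test. These counts depended on the test. Without either 0.2 µM library the 51 became 0, and the 23 became 7 without 2 µM replicate 1. Without 0.2 µM replicate 1 or 2 the 221 became 83 or 68, limma called 125 higher and 43 lower, and relative to the median log odds change of all tiles, 0.816 between these doses, 2 were higher and 75 lower. A first form of the model, replaced after its calls were seen, called 76 higher and 0 lower at 10 against 0.2 µM, and 0 in either direction in both other contrasts.

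Among the tiles with the largest rise from 0.2 to 10 µM was that of Setd6, a lysine methyltransferase (chr8:95716001-95717000). It was at 1.07% and 2.31% with 0.2 µM, 7.24%, 5.75% and 3.11% with 2 µM, and 8.39% and 11.5% with 10 µM, a difference of 8.24 percentage points (binomial model, adjusted p = 0.00917). A single CpG position gave 54.6% of its methylated reads in the treated libraries. Both 10 µM libraries lay above every other library, with DMSO at 6.38% and 2.11%. The tile of Cux2, a homeodomain transcription factor, was at 3.65% and 3.26% with 0.2 µM and 12.5% and 9.67% with 10 µM (binomial model, adjusted p = 0.00611), with DMSO at 3.40% and 9.16%. The tile of Kcnj4, an inward rectifier potassium channel, had no methylated read and 0.541% with 0.2 µM, and 6.70% and 5.30% with 10 µM (adjusted p = 0.0149). With 131 reads at the lowest, no methylated read there allows up to 2.29%. In DMSO the Kcnj4 tile was at 2.14% and 2.11%. As an unweighted mean over the 5 CpG positions with 5 reads in every library, the Kcnj4 difference was 0.41 in place of 5.73 percentage points. The tile of 2010001A14Rik had the highest mean after treatment: 10.4% and 8.76% with 0.2 µM, 13.9%, 12.3% and 10.5% with 2 µM, and 14.2% and 16.6% with 10 µM, with 5.49% and 2.17% in DMSO. All 7 treated libraries lay above both DMSO libraries, and 10 against 0.2 µM was called (binomial model, adjusted p = 0.0433). The other rises named by size were at Aktip, Sgsm3, Gm32817, Gm9222, Rab11b and a tile 16579 bp from the nearest end of Socs3, with differences of 5.56 to 6.56 percentage points. As an unweighted mean over such positions the Aktip tile was the reverse, at -1.04 over 4 positions. By the same measure Sgsm3 was at 0.43, Gm9222 at 2.23 and Rab11b at 2.00 percentage points, and Setd6, Cux2 and 2010001A14Rik at 6.29, 5.56 and 4.02. In tile level, the 10 µM libraries overlapped the DMSO libraries at Sgsm3, Gm32817, Gm9222 and Rab11b. At Aktip and in the tile nearest Socs3 they lay above both DMSO libraries.

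**Figure D5:**
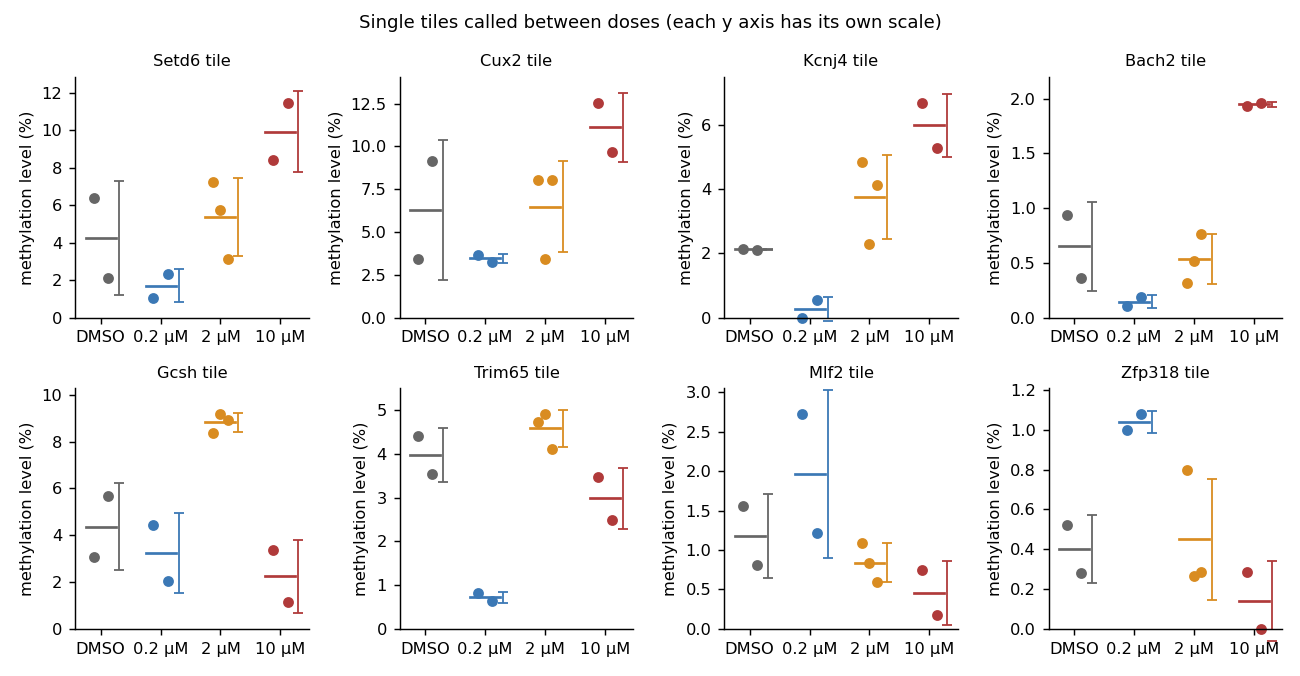
Methylation level (percent) of 8 tiles called between doses in each library (points), with group means (lines) and 1 SD (bars); each y axis has its own scale. Setd6, Cux2, Kcnj4 and Bach2 are highest with 10 µM, Gcsh with 2 µM only, Trim65 is lowest with 0.2 µM, and Mlf2 and Zfp318 are highest with 0.2 µM.

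Falls were smaller. The tile of Mlf2 was at 2.72% and 1.21% with 0.2 µM and 0.746% and 0.174% with 10 µM, a difference of -1.51 percentage points (binomial model, adjusted p = 0.0198). Its unweighted difference over 49 CpG positions was -0.018. The tile of Zfp318, a zinc finger protein that regulates IgD splicing in B cells, was at 1.00% and 1.08% with 0.2 µM and at 0.284% and no methylated read with 10 µM (adjusted p = 0.0194), where none allows up to 0.452% at the lowest coverage. The tiles of Tpm4, Gas5 and Oxr1 fell by 0.837 to 1.21 percentage points, that of Oxr1 lying 71551 bp from the nearest end of the gene. Neither 10 µM library had a methylated read in the Tpm4 or Oxr1 tile. At the lowest coverage this allows up to 1.30% and 1.10%, each more than the tile's fall. Gas5 had none in 10 µM replicate 2, which allows up to 0.485% at the lowest coverage.

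Some tiles were out of order with the dose. The calls between 2 and 0.2 µM rest on both 0.2 µM libraries, since 0 higher calls were made without either one. The Gcsh tile, which holds the promoter printed above, was at 4.44% and 2.05% with 0.2 µM, 8.36%, 9.17% and 8.92% with 2 µM, and 3.35% and 1.13% with 10 µM. It rose from 0.2 to 2 µM (binomial model, adjusted p = 0.0222) and fell from 2 to 10 µM (adjusted p = 0.00955), and the 2 µM libraries lay above all others. At the marked CGs of its promoter, the 2 µM libraries overlapped those of DMSO and of 10 µM. The tile of Trim65, a ubiquitin ligase, was at 0.815% and 0.629% with 0.2 µM and at 4.74%, 4.91% and 4.10% with 2 µM (adjusted p = 0.0230). With 10 µM it was at 3.48% and 2.49%, and this fall from 2 µM was not called (binomial model, adjusted p = 0.492). In DMSO the Trim65 tile was at 3.98% ± 0.607 (SD, n = 2), above both 0.2 µM libraries and given without a test. The tile of Vasp, an actin regulator, was at 8.92% and 5.68% with 0.2 µM and 0.339%, 3.87% and 3.03% with 2 µM (adjusted p = 0.0480). Its unweighted difference was -2.52 in place of -4.89 percentage points. With 10 µM the Vasp tile was at 5.28% ± 2.38 (SD, n = 2), and this rise from 2 µM was not called (binomial model, adjusted p = 0.203). From 2 to 10 µM, the tile of Spry2, an inhibitor of receptor tyrosine kinase signalling, fell from 1.34%, 2.35% and 2.03% to 0.474% and no methylated read, which allows up to 0.637% at the lowest coverage (adjusted p = 0.0253).

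Gene lists were taken at gene ends. Of 20 housekeeping genes, 13 had a CpG-dense tile and 12 of those a tile of the set. The 17 genes for CpG island state (CXXC proteins, DNA methylation and Polycomb) gave 15 and 13, and 20 tumour suppressors and DNA damage genes 16 and 16. Of 20 developmental regulators, 14 had a CpG-dense tile and 1 of those a tile of the set. The median DMSO level of the 20 dense tiles of these regulators was 55.1%, against 0.597% for housekeeping genes. Of 20 B lineage genes, 8 had a dense tile, and all 8 were in the set. Over all genes, 5658 CpG-dense tiles at gene ends were in the set and 2815 were not. Because the DMSO level chose the tiles, these shares carry no test. Between doses, 0 of 12 housekeeping and 0 of 16 CpG island state tiles passed the binomial model's threshold in any contrast. With 3.46% of the whole set called higher and 0.235% lower at 10 against 0.2 µM, and smaller shares in the other contrasts, nothing particular to these lists is read from their counts. The Dnmt3b tile, a de novo methyltransferase, was between 0.141% and 1.64% in the treated libraries, and that of Uhrf1, which brings DNMT1 to new DNA, between 0.286% and 0.923%.

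Tiles that passed in the other lists were few, as in the whole set. Of 13 B lineage tiles, 1 at Bach2, a transcriptional repressor of B cells (chr4:32238001-32239000), was at 0.103% and 0.187% with 0.2 µM, 0.313%, 0.519% and 0.766% with 2 µM, and 1.93% and 1.96% with 10 µM (binomial model, adjusted p = 7.04e-04 against 0.2 µM and 0.0275 against 2 µM). In DMSO this Bach2 tile was at 0.937% and 0.365%. The adjacent Bach2 tile was at 0.588% and 0.180% with 10 µM. Ikzf3, which encodes Aiolos, had the highest B lineage tile, at 3.36% and 3.35% with 0.2 µM and 4.02% and 5.67% with 10 µM, not called. Of 19 tumour suppressor tiles, that of Cdkn2a was at 1.39% and 0.724% with 0.2 µM and 3.98% and 1.64% with 10 µM (adjusted p = 0.0210). In DMSO the Cdkn2a tile was at 1.22% and 3.07%, which overlaps 10 µM. A tile of Stk11, a kinase that activates AMPK, was at 1.14%, 0.364% and 0.788% with 2 µM and had no methylated read in either library with 10 µM, which allows up to 0.658% at the lowest coverage (adjusted p = 0.0476). The adjacent Stk11 tile was not called: 0.256%, 0.365% and no methylated read with 2 µM, where none allows up to 1.45% at the lowest coverage, and 0.778% and 0.966% with 10 µM (adjusted p = 0.391).

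At the limit of the rule, the tiles just inside were those of Fzd4, at 5.51% and 3.70% in DMSO, and Anp32b, at 4.10% and 6.18%. Just outside were Nceh1, at a pooled 5.00%, and Gm35235, at 5.02%. At the rising doses Nceh1 was at 2.31%, 5.31% and 7.13% and Gm35235 at 1.99%, 4.66% and 4.29%.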

How the data were processed

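RRBS of 9 libraries was used. Per the labels, DNA of live cells went into a commercial RRBS kit. The authors deposited 1 headerless table per library with a CpG position, methylated over all reads as text, and a score. The deposited score equalled the methylated share times 1000, rounded down, on every line. Counts came from the text entry. The build is mm10 per the submitters' processing notes; the aligner was not given in the sources used here, nor was the caller. Lines of unusual width (1 to 2 per library) and at repeated positions (18 to 68) were left out. Positions are printed 1-based.

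Reads were summed per tile of 1 kb. A library's value is the unweighted mean over tiles, compared between doses by exact two-sided permutation over libraries. Single tiles were tested over 40414 tiles with at least 20 reads in every library, on all chromosomes, by a binomial model with reads scaled to an effective number (intra-tile correlation in 5 coverage and 4 level classes), dispersion moderated by limma 3.58.1 in R 4.3.3 and not under 1, and Benjamini-Hochberg adjustment at 0.05. The scheme was tested on simulated data, where it recovered a minority of the raised and very few of the lowered tiles, so a tile that was not called may still have changed, and falls are harder to call than rises. Its first form took the dispersion prior from every tile and called 0 tiles of the set between 2 and 0.2 µM and between 10 and 2 µM. It was replaced, after those calls were seen, by a prior from tiles with at least 5 effective methylated and 5 unmethylated reads, the other tiles taking the prior alone. Both forms' counts are given.

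The members and gene lists were chosen with earlier results of these data known. Tiles are named by the nearest gene end: up to 10 rises and 5 falls by size for 10 against 0.2 µM and up to 5 and 5 for the other contrasts, called and with libraries that do not overlap; the highest after treatment; the most CpG positions; those at the threshold; and list members. Some tiles that this rule names are not reported here. Alternatives are in the closing section. The numbers of the replicates were not used to pair the libraries, except in the replicate block. Deviations from the group mean correlated at -0.0801 to 0.0585 in 12 pairs of libraries with the same number. Where both groups hold 2 libraries, their 2 pairs give the same value. Squared differences between replicates were only 1.25 to 1.36 times the binomial value, so counting error can hide pairing and this check cannot exclude it.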

Additional observations from a re-analysis of the deposited data

Results flagged for a closer look

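Of 5 differences between classes compared over the doses, 4 had an unadjusted exact permutation p under 0.05 in the test of the difference itself and are given here; the classes other than gene ends were made after values of these data were seen. The gap between tiles of 2 to 5% and tiles under 0.5% in DMSO was 1.11 percentage points ± 0.00766 (SD, n = 2) with 0.2 µM, 2.43 ± 0.0436 (n = 3) with 2 µM and 2.95 ± 0.0378 (n = 2) with 10 µM (exact permutation p = 0.00952, the smallest possible; 0.0238 adjusted). In DMSO, which set these classes, that gap was 2.86 percentage points. Tiles under 0.5% had little to lose in percentage points, so a gap that follows the mean level was largely built in. Nothing beyond the difference in mean level is read from this test. CpG positions far from a start exceeded those near one by amounts that differed between doses (exact permutation p = 0.0190, 0.0317 adjusted). These amounts were 0.0284, 0.146 and 0.181 percentage points at the rising doses, and 0.216 in DMSO. The excess of tiles beside a tile of 20% or more differed between doses only before adjustment (exact permutation p = 0.0476, 0.0595 adjusted). It was 0.267, 0.767 and 0.826 percentage points at the rising doses, and 0.801 in DMSO. Gene ends minus other places with the 250 bp window was -0.0209 percentage points ± 0.00470 (n = 2) with 0.2 µM, -0.0942 ± 0.00802 (n = 3) with 2 µM and -0.125 ± 0.0172 (n = 2) with 10 µM (exact permutation p = 0.00952, 0.0238 adjusted), while the 1 kb window gave 0.0762, unadjusted and adjusted. In DMSO the 250 bp difference was -0.0977 ± 0.0239 (n = 2). The DMSO values are descriptions without a test.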

How the results depend on the processing

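The 3 differences in mean level between doses kept their sign under all 18 alternatives; 10 minus 0.2 µM ranged from 0.0983 to 0.455 percentage points, and from 0.233 to 0.248 with each library left out. The exact p over the doses was 0.0667 with tiles under 2% in DMSO, 0.0190 to 0.0667 with each library left out, 0.0667 being the smallest that 2, 2 and 2 libraries allow, and 0.167 with the replicate block, also the smallest it allows. For gene ends minus other places it was 0.00952 with tiles under 2%, with tiles under 10% and with a 250 bp window, 0.0190 to 0.383 with each library left out, 0.810 weighted by reads (10 minus 0.2 µM -0.0156 in place of -0.0610), 0.352 with at least 50 reads and 0.5 with the replicate block. With at least 60 CpG positions its 3 changes reversed: 0.0178 (2 minus 0.2 µM), 0.0136 (10 minus 2 µM) and 0.0314 (10 minus 0.2 µM). The causes were not tested. The Aktip tile reversed as an unweighted mean over positions (-1.04), an alternative added after seeing the data, and the Kcnj4, Sgsm3 and Mlf2 differences shrank to 0.41, 0.43 and -0.018; the Mir425 tile has 1 such position and gave no mean.

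Counts of called tiles moved most, and are given as higher and lower for 2 against 0.2 µM, 10 against 2 µM, and 10 against 0.2 µM, where they moved by over 1.5 times. With limma on arcsine levels they were 10 higher; 3 and 4; and 125 and 43. With at least 50 reads they were 32 and 1 in the first contrast. With at least 10 reads in the fit, 1 was lower in the first and 15 higher in the second. Without scaling of reads, 123 were higher in the first and 4 lower in the second. Set against the median change they were 1 and 6; 0 and 1; and 2 and 75. With only the libraries of the 3 doses they were 31 and 1; and 12 and 4. With the replicate block they were 10 and 1; and 5 and 2. With the dispersion prior from every tile, the first form run and listed here as added after seeing the data, they were 0 and 0; 0 and 0; and 76 and 0, with 232 and 32, 76 and 58, and 288 and 43 at an unadjusted p under 0.05. With each library left out they ranged from 0 to 78 and 1 to 3; 7 to 15 and 1 to 7; and 68 to 221 and 1 to 16. The first contrast had 0 higher without either 0.2 µM library. A dose left with 1 library is assumed to vary like the others.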
